A study of Mus musculus with 5 samples.

Results

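The gene expression of C2C12 cells given TEPP-46 for 8 h is set here against that of C2C12 cells given vehicle for the same time. The members are 2 of the 5 libraries of the series, chosen by their labels, and 10922 of the 23361 genes in the deposited table, those whose FPKM averaged at least 1 in the pair. FPKM is the number of fragments per kilobase of gene, scaled to the size of the library. C2C12 is an immortalised mouse myoblast line, and all cultures were proliferating in a high-glucose medium that contained fetal bovine serum when RNA with a poly(A) tail was taken from them. The remaining libraries came from cells given shikonin for 8 h, from cells that carried a hairpin against PKM2 (shPKM2) for 72 h and from cells that carried a control hairpin (shControl) for 72 h, and they serve as context. The sources used here give neither the dose of TEPP-46 nor the kind of vehicle. Every condition had 1 library, so no difference below has a replicate check or a p-value, and the words higher and lower describe these libraries.

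PKM2 is a splice form of pyruvate kinase that many growing cells use to make pyruvate, and TEPP-46 is a compound known to bind PKM2 and hold it in its active tetramer. The title of the series speaks of inhibition, and the labels do not say how an activator fits that title. Cells answer an excess of zinc or other metals through the factor MTF1, which binds metal response elements and raises the metallothioneins, small cysteine-rich proteins that bind metal. They answer a lack of amino acids, misfolded protein in the endoplasmic reticulum, mitochondrial stress or haem shortage through kinases of the initiation factor eIF2, which favour translation of the factor ATF4 and so of genes for amino acid supply, the integrated stress response.

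The depth of each library was estimated from the steps between its lowest values. In units of 1000000 reads, it came to about 24 for TEPP-46 and 30.7 for vehicle, and to 22.2 to 25.9 for the other libraries. The muscle label held in both libraries: Myod1, the master factor of myoblasts, stood at 52.3 FPKM with TEPP-46 and 63.2 FPKM with vehicle, and the muscle intermediate filament gene Des at 254 FPKM with TEPP-46 and 290 FPKM with vehicle. The 10 myoblast markers summed to 626 FPKM with TEPP-46 and 687 FPKM with vehicle. The summed markers of adipocytes, endothelial cells and epithelial cells were at most 0.374 FPKM in either library, with Adipoq, Plin1, Lep and Epcam at 0 in both. The fibroblast markers summed to 5.30 FPKM with TEPP-46 and 6.01 FPKM with vehicle, with Lum at 0 in both, and the macrophage markers to 2.56 FPKM with TEPP-46 and 2.59 FPKM with vehicle, nearly all from Cd68. As a yardstick, the shControl culture was at least 2-fold higher than the vehicle culture in 396 of 11082 genes (3.57%) and at least 2-fold lower in 74 (0.668%). These control cultures, which differed in hairpin and in time, thus differed at least 2-fold in more genes than the TEPP-46 and vehicle cultures did.

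Differences are given as log2(FPKM + 1) with TEPP-46 minus the same with vehicle, and a difference of at least 1 on this scale is called at least 2-fold. The added 1 understates the difference of genes with few FPKM, and the SE beside a value covers the counting of reads only. Over all 10922 genes the median difference was 0.00, with quartiles of -0.14 and 0.16, and the middle 95% of genes lay between -0.55 and 0.70. Above 0 lay 50.0% of the genes, and 50.0% lay below it. At least 2-fold higher with TEPP-46 were 143 genes (1.31%), and at least 2-fold lower were 39 (0.357%). These shares are the background for the lists below. From a looser bound of 1.5-fold, 393 genes (3.6%) were higher and 215 (1.97%) were lower. A share of these were short RNA genes, such as small nucleolar RNA and microRNA genes, which libraries of polyadenylated RNA cover poorly. Of 50 short RNA genes that entered, 7 were higher and 14 were lower, and 15 of these were listed at 0 in either library, so they are not described further, apart from Rmrp and Rpph1. Among the 10872 longer genes, 136 were higher (1.25%) and 25 were lower (0.23%). The higher side was also the more extreme one. At least 4-fold higher were 20 longer genes and at least 4-fold lower were 0, and the 5 genes at least 8-fold higher were Mt2, Car6, Trib3, Mt1 and Ddit3. Fewer cells of a type and less RNA per cell cannot be told apart in such bulk libraries.

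**Figure D1:**
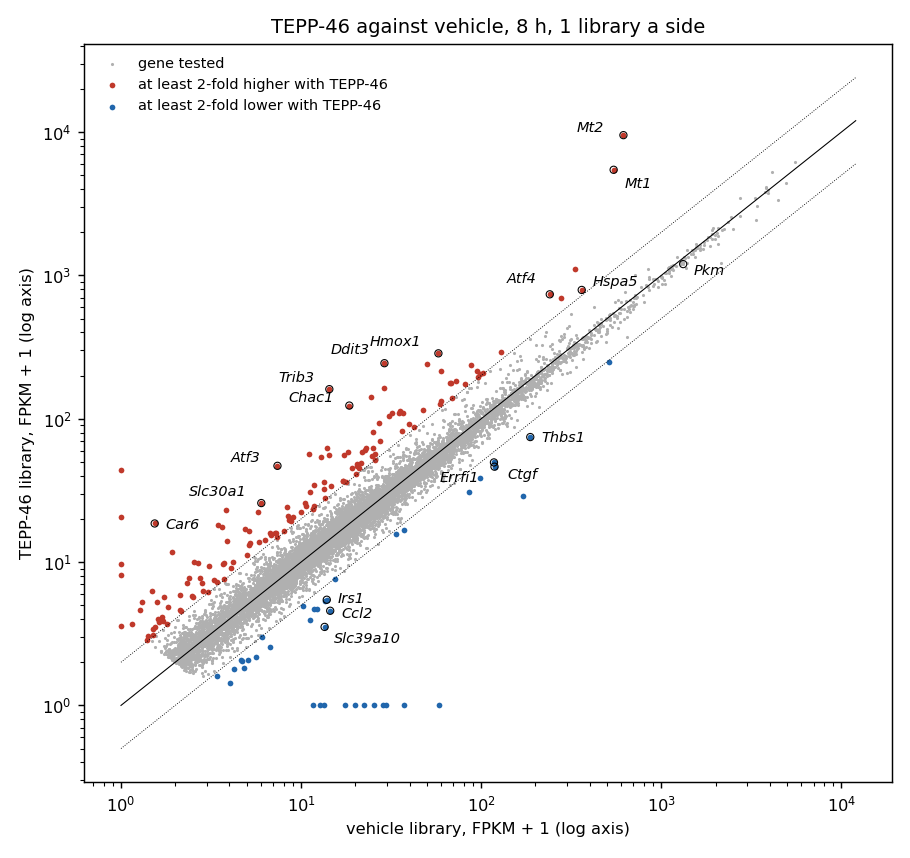
FPKM + 1 of every gene tested, with the TEPP-46 library on the vertical axis and the vehicle library on the horizontal axis, both log axes. The solid line marks equal values and the dotted lines 2-fold differences. Mt2 and Mt1 stand far above the line at the high end, and the blue points along the bottom edge are short RNA genes listed at 0 with TEPP-46.

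Metal-handling genes held the highest difference of all longer genes and also the lowest. Mt2, a metallothionein, was at 9511 FPKM with TEPP-46 and 2297 FPKM with shikonin, against 615 FPKM with vehicle. Its level was 1343 FPKM with shPKM2 and 1310 FPKM with shControl. Mt2 was thus the most abundant gene by FPKM in the TEPP-46 library, where it ranked 1, against rank 130 with vehicle. Its neighbour Mt1, also a metallothionein, was at 5452 FPKM with TEPP-46 and 1909 FPKM with shikonin, against 543 FPKM with vehicle. The TEPP-46 library was the highest of all 5 for both genes, and the vehicle library was the lowest. Together they took 2.62% of all FPKM with TEPP-46 and 0.206% with vehicle. The differences between TEPP-46 and vehicle were 3.95 ± 0.015 for Mt2 and 3.33 ± 0.011 for Mt1 (counting SE), or ratios of 15.5 and 10.0. Mt1 and Mt2 are related in sequence, and the sources used here do not say how reads shared by related genes were assigned. Mt3 was listed at 0 in both libraries and Mt4 was under the minimum level.

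Among the zinc carriers, 1 exporter and 1 importer stood apart, in opposite directions. Slc30a1, which encodes the zinc exporter of the plasma membrane, was at 24.8 FPKM with TEPP-46 and 11.7 FPKM with shikonin, against 5.01 FPKM with vehicle. The difference was 2.10 ± 0.049, and the hairpin cultures were near the vehicle culture, at 4.08 FPKM with shPKM2 and 4.38 FPKM with shControl. Slc39a10, which encodes a zinc importer, was at 2.53 FPKM with TEPP-46 and 7.67 FPKM with shikonin, against 12.5 FPKM with vehicle. The difference was -1.94 ± 0.064, and the TEPP-46 library was again apart from all others, since the hairpin cultures held 8.14 FPKM with shPKM2 and 9.76 FPKM with shControl. The importers Slc39a8 (1.09 FPKM with TEPP-46 and 2.20 FPKM with vehicle) and Slc39a13 (22.96 FPKM with TEPP-46 and 33.2 FPKM with vehicle) were also lower, at -0.62 and -0.52 on the log2(FPKM + 1) scale. Of the 10 importers that entered, 7 lay below 0 and 1 was at least 2-fold lower. The importers had a median of -0.11, and the highest was at 0.42. Of the 6 exporters 3 lay below 0 and 1 was at least 2-fold higher. Mtf1, the metal sensor itself, was at 5.81 FPKM with TEPP-46 and 5.09 FPKM with vehicle, a difference of 0.16.

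Genes for other metals differed less. None of the 9 copper genes tested and none of the 11 iron genes tested was at least 2-fold apart. The ferritin subunits Ftl1 (5237 FPKM with TEPP-46 and 4096 FPKM with vehicle) and Fth1 (3476 FPKM with TEPP-46 and 2728 FPKM with vehicle) were higher by the same 0.35. Tfrc, the transferrin receptor that brings iron into the cell, was at 36.0 FPKM with TEPP-46, against 60.5 FPKM with vehicle, a difference of -0.73.

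**Figure D2:**
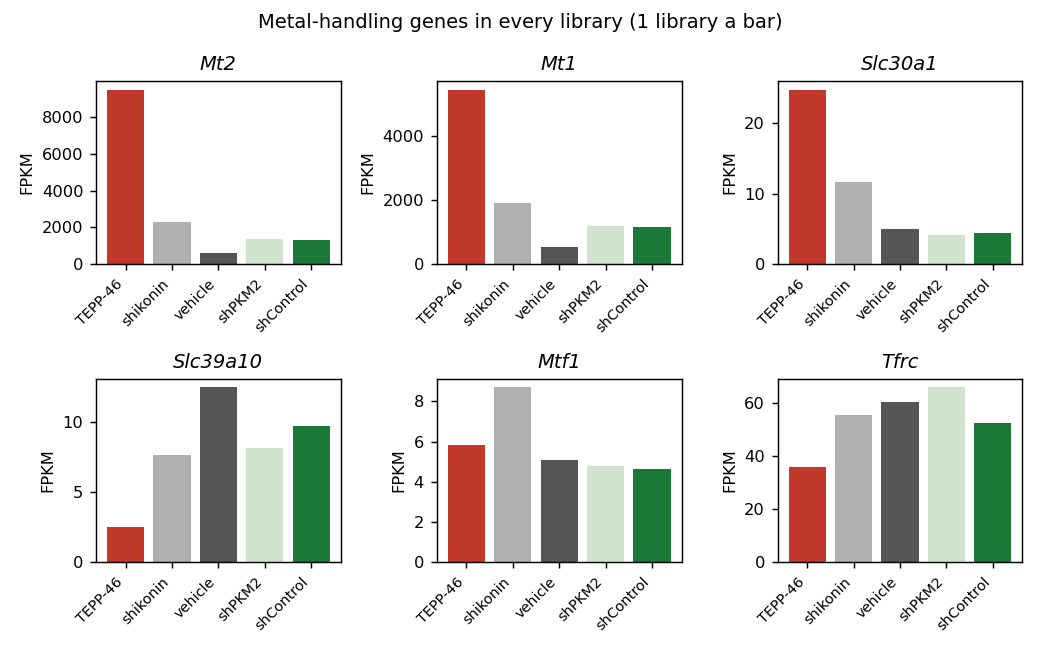
FPKM of 6 metal-handling genes in all 5 libraries, 1 bar a library. For Mt2, Mt1 and Slc30a1 the TEPP-46 bar is the highest, for Slc39a10 and Tfrc it is the lowest, and Mtf1 differs little between TEPP-46 (5.81 FPKM) and vehicle (5.09 FPKM).

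The promoters of the 3 metal-handling genes that were higher are shown because they hold the letters of the metal response element. They are RefSeq windows of GRCm38.p6, from 250 bases before the annotated start to 50 bases after it. They lie at chr8:94172368-94172667 (plus strand) for Mt2, chr8:94178839-94179138 (plus strand) for Mt1 and chr1:191906531-191906830 (plus strand) for Slc30a1. Capitals mark the core of the element, TGCACNC or TGCGCNC on either strand, so that a match to the opposite strand is printed in its complementary letters.
Mt2: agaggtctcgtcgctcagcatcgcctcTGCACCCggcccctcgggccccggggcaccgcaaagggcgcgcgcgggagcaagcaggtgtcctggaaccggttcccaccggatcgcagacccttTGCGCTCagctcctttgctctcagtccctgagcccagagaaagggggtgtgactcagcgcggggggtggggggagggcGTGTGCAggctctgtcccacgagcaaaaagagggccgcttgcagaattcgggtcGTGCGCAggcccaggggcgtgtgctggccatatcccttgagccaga
Mt1: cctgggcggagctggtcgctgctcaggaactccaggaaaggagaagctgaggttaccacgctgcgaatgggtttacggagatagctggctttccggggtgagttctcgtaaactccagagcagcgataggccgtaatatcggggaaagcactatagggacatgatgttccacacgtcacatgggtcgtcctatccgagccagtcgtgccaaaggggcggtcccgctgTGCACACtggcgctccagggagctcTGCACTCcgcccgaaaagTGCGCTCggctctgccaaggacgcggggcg
Slc30a1: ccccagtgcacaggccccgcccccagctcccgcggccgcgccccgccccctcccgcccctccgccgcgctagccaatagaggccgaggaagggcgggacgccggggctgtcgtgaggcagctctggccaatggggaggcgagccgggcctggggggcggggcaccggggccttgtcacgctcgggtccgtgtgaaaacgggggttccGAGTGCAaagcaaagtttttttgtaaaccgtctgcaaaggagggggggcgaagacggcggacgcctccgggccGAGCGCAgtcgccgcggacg
Mt2 held 4 matches, Mt1 held 3 and Slc30a1 held 2. In Mt1 the matches lie close to the annotated RefSeq start, from 23 bases before it to 27 bases after it. In Mt2 they begin 223 bases before the RefSeq start. Where transcription began in these cells was not measured. The GENCODE annotation places the start of the Mt2 gene at 94172664, downstream of the RefSeq start. The windows of Slc39a10, which was lower, held 0 matches. The core is short and common: 25.7% of all 32851 promoter windows held at least 1 match and 7.11% held at least 2. Of the 111 higher longer genes with a window, 43 (38.7%) held it, against 41.5% of all tested genes with a window, so the higher genes as a group did not hold it more often.

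Among the gene lists, that of the integrated stress response held the most of the higher genes. Of 42 listed genes 41 entered, 37 lay above 0 and 27 were at least 2-fold higher, against 50.0% and 1.31% of all genes tested, and 0 were at least 2-fold lower. The median difference of the list was 1.54, against 0.00 over all genes. All 27 are longer genes, counted among the 136, of which 55 were on any list. The lists were chosen with earlier results of these data known.

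The kinases that start the pathway were not higher. Eif2ak3, the kinase that senses stress in the endoplasmic reticulum, was at 5.76 FPKM with TEPP-46 and 5.74 FPKM with vehicle. Eif2ak4, which senses a lack of amino acids, was at 6.83 FPKM with TEPP-46 and 7.34 FPKM with vehicle. Eif2ak1, which senses haem and relays mitochondrial stress, was at 17.1 FPKM with TEPP-46 and 21.9 FPKM with vehicle. Eif2ak2, which senses RNA with paired strands, was at 6.84 FPKM with TEPP-46 and 10.3 FPKM with vehicle, while the hairpin cultures held 37.6 FPKM with shPKM2 and 37.2 FPKM with shControl. None of the 4 was 2-fold apart between TEPP-46 and vehicle, and their activity is not read from RNA levels.

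All 8 transcription factors of the list lay above 0, and 6 were at least 2-fold higher. Ddit3 (CHOP), a factor that ATF4 switches on, was at 243 FPKM with TEPP-46 and 195 FPKM with shikonin, against 28.02 FPKM with vehicle, a difference of 3.07 ± 0.052. The hairpin cultures stood between these values, at 91.4 FPKM with shPKM2 and 94.3 FPKM with shControl. Atf3, a stress-induced factor of the same family as ATF4, was at 45.9 FPKM with TEPP-46 and 27.7 FPKM with shikonin, against 6.39 FPKM with vehicle, a difference of 2.67 ± 0.070. Its hairpin cultures held 13.0 FPKM with shPKM2 and 18.6 FPKM with shControl, again between the compounds and the vehicle. Nupr1, a small stress-induced chromatin protein, was at 240 FPKM with TEPP-46 and 49.3 FPKM with vehicle. Atf4 itself, which is mainly controlled through its translation, was at 737 FPKM with TEPP-46 and 407 FPKM with shikonin, against 239 FPKM with vehicle, a difference of 1.62 ± 0.014. Its hairpin cultures were near the vehicle culture, at 261 FPKM with shPKM2 and 267 FPKM with shControl. Cebpb and Cebpg, partners of ATF4, were higher by 1.16 and 1.02, although the Cebpb level of 80.6 FPKM with TEPP-46 was close to the 78.5 FPKM of the shControl culture. Atf5 (0.95) and Jdp2 (0.79) were higher by less than 2-fold.

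The effectors included the highest members of the list, and 20 of the 27 that entered were at least 2-fold higher. Trib3, a pseudokinase that restrains ATF4 and AKT, was at 160 FPKM with TEPP-46 and 47.5 FPKM with shikonin, against 13.3 FPKM with vehicle, a difference of 3.49 ± 0.049. The hairpin cultures held 24.4 FPKM with shPKM2 and 22.5 FPKM with shControl, so TEPP-46 was the highest and shikonin the next. Chac1, an enzyme that breaks down glutathione, was at 123 FPKM with TEPP-46 and 55.7 FPKM with shikonin, against 17.5 FPKM with vehicle, a difference of 2.74 ± 0.050. Cth, which makes cysteine from cystathionine, was at 55.9 FPKM with TEPP-46, against 10.0 FPKM with vehicle, and the other libraries lay between 9.62 and 11.8 FPKM. Slc7a11, the carrier that brings cystine into the cell, was at 16.1 FPKM with TEPP-46 and 28.1 FPKM with shikonin, against 3.88 FPKM with vehicle. Of these 4 genes, Slc7a11 alone was higher with shikonin than with TEPP-46. The secreted products on the list were the peptide Adm2, the stress hormones Gdf15 and Fgf21, the glycoprotein Stc2 and the vessel growth factor Vegfa. All 5 were at least 2-fold higher than with vehicle. Adm2 was at 17.2 FPKM with TEPP-46 and 2.48 FPKM with vehicle. Gdf15 was at 108 FPKM with TEPP-46 and 296 FPKM with shikonin, against 34.1 FPKM with vehicle and 79.2 FPKM with shControl. Fgf21 was at 2.70 FPKM with TEPP-46, against 0.154 FPKM with vehicle and 1.19 FPKM with shControl. Its vehicle value rested on about 4.49 estimated reads. Against shControl the differences were 2.39 for Adm2, 1.75 for Stc2, 1.10 for Vegfa, 0.75 for Fgf21 and 0.44 for Gdf15. Ppp1r15a (GADD34), the stress-induced subunit that directs the phosphatase of eIF2, was at 52.9 FPKM with TEPP-46, against 11.8 FPKM with vehicle, while its constitutive relative Ppp1r15b was at 41.6 FPKM with TEPP-46 and 32.5 FPKM with vehicle. The death genes of the list differed less: Bbc3 was higher by 0.73, Pmaip1 by 0.35 and Bcl2l11 by 0.10, and the death receptor gene Tnfrsf10b was lower, at -0.24.

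Car6, which encodes a carbonic anhydrase with a stress-inducible form that depends on CHOP in mouse cells, was on no list. It was at 17.6 FPKM with TEPP-46 and 7.003 FPKM with shikonin, against 0.539 FPKM with vehicle, a difference of 3.59 ± 0.11. The hairpin cultures held 2.39 FPKM with shPKM2 and 3.57 FPKM with shControl. The order of the 5 libraries was the same as for Atf3. Ndrg1, a gene of stress and of hypoxia, was at 162 FPKM with TEPP-46 and 28.03 FPKM with vehicle, but the shControl culture held 81.4 FPKM.

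**Figure D3:**
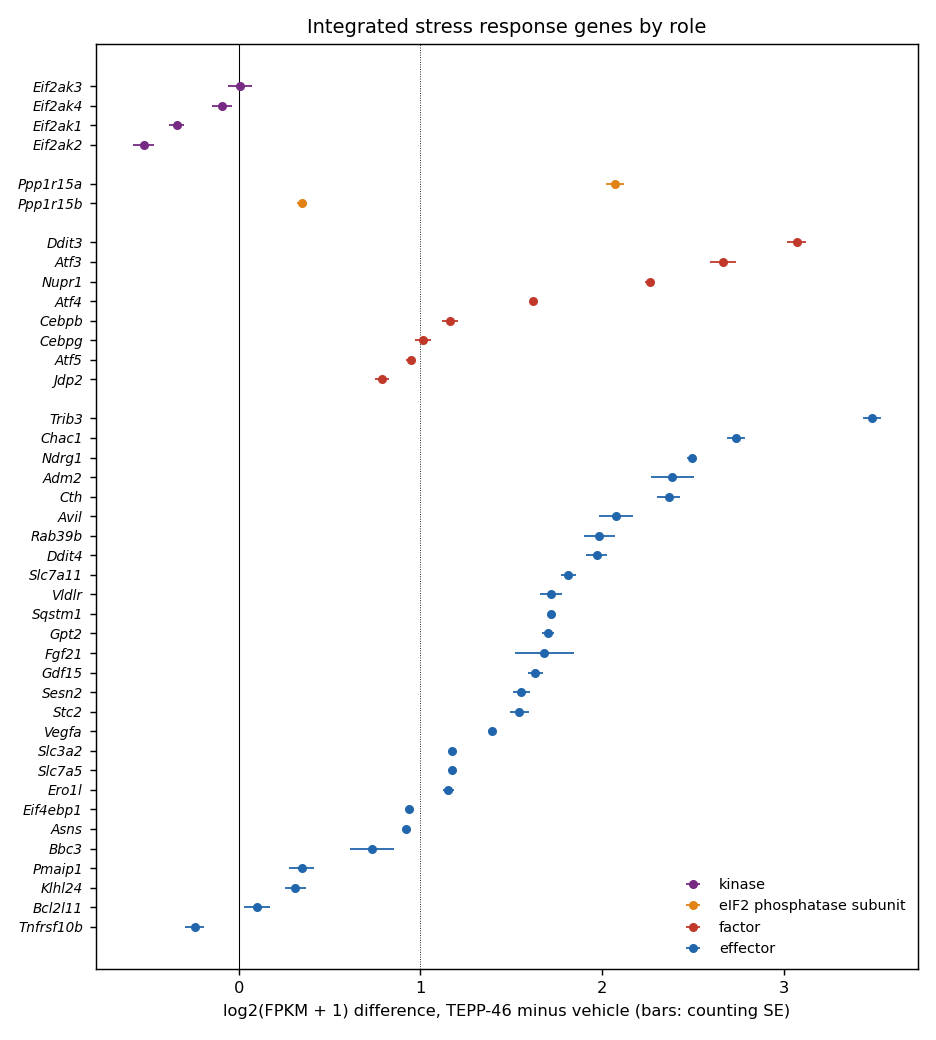
Difference in log2(FPKM + 1), TEPP-46 minus vehicle, of the integrated stress response genes tested, by role, with bars for the counting SE. The solid line marks 0 and the dotted line 2-fold higher. The 4 kinases lie at or below 0.00, and most factors and effectors lie to the right of the dotted line.

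Promoters of 4 of these genes are shown because they hold the composite C/EBP-ATF response element (CARE) to which ATF4 and its partners bind. They are again RefSeq windows of GRCm38.p6, at chr2:152344011-152344310 (minus strand) for Trib3, chr2:119350992-119351291 (plus strand) for Chac1, chr1:191183284-191183583 (minus strand) for Atf3 and chr3:50443564-50443863 (minus strand) for Slc7a11. Each is printed in the direction of its gene. Capitals mark TGATGNAA on either strand, and a match to the opposite strand is again printed in its complementary letters.
Trib3: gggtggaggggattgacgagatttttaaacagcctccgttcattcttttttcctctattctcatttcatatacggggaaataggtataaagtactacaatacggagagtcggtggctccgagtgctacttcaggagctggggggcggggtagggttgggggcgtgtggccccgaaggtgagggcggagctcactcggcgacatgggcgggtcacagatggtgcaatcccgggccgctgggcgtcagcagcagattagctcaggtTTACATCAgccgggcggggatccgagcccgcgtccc
Chac1: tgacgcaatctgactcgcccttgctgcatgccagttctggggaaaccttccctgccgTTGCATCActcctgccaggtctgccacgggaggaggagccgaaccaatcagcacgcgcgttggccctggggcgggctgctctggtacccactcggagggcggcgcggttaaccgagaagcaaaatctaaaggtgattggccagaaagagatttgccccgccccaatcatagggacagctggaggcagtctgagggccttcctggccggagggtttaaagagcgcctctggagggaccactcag
Atf3: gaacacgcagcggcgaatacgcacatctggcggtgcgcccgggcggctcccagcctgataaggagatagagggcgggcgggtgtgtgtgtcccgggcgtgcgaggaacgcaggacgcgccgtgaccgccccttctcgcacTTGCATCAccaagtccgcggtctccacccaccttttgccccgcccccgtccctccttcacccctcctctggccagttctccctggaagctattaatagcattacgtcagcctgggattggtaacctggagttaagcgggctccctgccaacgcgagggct
Slc7a11: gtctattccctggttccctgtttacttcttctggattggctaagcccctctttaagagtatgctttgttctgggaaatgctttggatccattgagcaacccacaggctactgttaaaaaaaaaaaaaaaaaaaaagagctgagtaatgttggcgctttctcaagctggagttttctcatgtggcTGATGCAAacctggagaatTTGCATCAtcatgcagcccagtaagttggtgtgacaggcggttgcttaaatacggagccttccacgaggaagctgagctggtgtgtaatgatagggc
Slc7a11 held 2 matches, 1 on each strand, and the other 3 windows held 1 each. The match of Atf3 begins 110 bases before the start, that of Chac1 193 bases before it and that of Trib3 15 bases after it. At least 1 match was present in 3.97% of all promoter windows. Counted by gene, it was present for 2.54% of the tested genes with a window, for 18 of 111 higher longer genes (16.2%), for 0 of 15 lower longer genes and for 11 of 32 list members with a window (34.4%). List members that were higher count in the shares of the higher genes and of the list, so these shares are not independent. The list also names genes already known for this response, so a high share in it does not depend on these data. Binding of ATF4 was not tested. The windows of Ddit3 and Atf4 held 0 matches, which says only that these letters are not in those 300 bases.

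Enzymes that charge tRNA with amino acids differed by compartment. All 20 cytosolic synthetases entered, 16 lay above 0, and the median difference was 0.54, although 0 were at least 2-fold higher. The highest were Aars for alanine (163 FPKM with TEPP-46 and 85.0 FPKM with vehicle, 0.93), Wars for tryptophan (116 FPKM with TEPP-46 and 61.7 FPKM with vehicle, 0.90) and Sars for serine (178 FPKM with TEPP-46 and 95.3 FPKM with vehicle, 0.89). The 4 below 0 were Kars (-0.27), Qars (-0.21), Farsa (-0.19) and Dars (-0.03), for lysine, glutamine, phenylalanine and aspartate. The 17 mitochondrial synthetases had a median of 0.09, with 10 above 0. Of these only Lars2 was 2-fold apart, at 37.7 FPKM with TEPP-46 and 98.0 FPKM with vehicle. The mouse Lars2 gene carries a repeat that resembles ribosomal RNA, and its value moved with Rn45s, the precursor of ribosomal RNA (249.4 FPKM with TEPP-46 and 512 FPKM with vehicle), and with the RNA subunits Rmrp and Rpph1. All 4 of these genes lay below 0 and 3 were at least 2-fold lower, with a median of -1.19. In a selection for poly(A) tails such RNA can be carried over, and its part in the Lars2 value was not tested.

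One-carbon metabolism differed by compartment too. All 3 enzymes of serine synthesis were higher, Psph by 1.16, Phgdh by 0.54 and Psat1 by 0.44. Of the 6 mitochondrial folate enzymes, 5 lay above 0 and 2 were at least 2-fold higher: Aldh1l2 was at 92.6 FPKM with TEPP-46 and 25.9 FPKM with vehicle, and Mthfd2 was at 204 FPKM with TEPP-46 and 97.0 FPKM with vehicle. Shmt2, which moves a carbon from serine to folate in mitochondria, was higher by 0.70. Of the 7 cytosolic folate enzymes that entered, 1 lay above 0. Shmt1, the cytosolic counterpart of Shmt2, was at 18.9 FPKM with TEPP-46 and 19.3 FPKM with vehicle. The median difference was 0.68 for the mitochondrial enzymes and -0.16 for the cytosolic ones.

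Among 17 enzymes of amino acid synthesis the median was 0.05 and 9 lay above 0, so the list as a whole was near the background. Gpt2, the mitochondrial alanine transaminase, was at 80.4 FPKM with TEPP-46 and 24 FPKM with vehicle, while its cytosolic relative Gpt was at 4.03 FPKM with TEPP-46 and 4.17 FPKM with vehicle. Got1, the cytosolic aspartate transaminase, was at 86.6 FPKM with TEPP-46 and 41.3 FPKM with vehicle, while the mitochondrial Got2 was at 146 FPKM with TEPP-46 and 157 FPKM with vehicle. Asns, which makes asparagine, was higher by 0.92, and Ass1, an enzyme of arginine synthesis, was lower, at -0.55. Of 17 amino acid carriers that entered, 11 lay above 0, against 50.0% of all genes tested. At least 2-fold higher were 5 of the carriers, against 1.31% of all genes, and the carriers had a median of 0.65. The highest was Slc6a9, the glycine carrier GlyT1, at 61.3 FPKM with TEPP-46 and 37.4 FPKM with shikonin, against 12.9 FPKM with vehicle. Slc1a4 and Slc7a5, which carry neutral amino acids, were higher by 1.45 and 1.17, and Slc3a2, a partner subunit of such carriers, by 1.18. Of the 5 at least 2-fold higher, Slc3a2, Slc7a5 and Slc7a11 are also on the integrated stress response list. Slc6a6, the taurine carrier, and the lysosomal Slc36a4 were lower, at -0.34 and -0.48.

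The unfolded protein response of the endoplasmic reticulum was higher in a few members and not as a list. Of 30 genes tested 18 lay above 0 and 3 were at least 2-fold higher, against 50.0% and 1.31% of all genes tested. The median was 0.06. Herpud1, which serves the degradation of misfolded proteins, was at 104 FPKM with TEPP-46 and 60.1 FPKM with shikonin, against 29.7 FPKM with vehicle. The hairpin cultures held 81.5 FPKM with shPKM2 and 70.0 FPKM with shControl. Hspa5 (BiP), the main chaperone of the compartment, was at 790 FPKM with TEPP-46 and 1248 FPKM with shikonin, against 360 FPKM with vehicle, and the shControl culture held 552 FPKM. Ero1l, an oxidase that forms disulfide bonds and is also on the integrated stress response list, was higher by 1.15. Against shControl these 3 genes were less than 2-fold higher, by 0.56 for Herpud1, 0.52 for Hspa5 and 0.55 for Ero1l. The sensors Ern1, Atf6 and Eif2ak3 were at 0.74, 0.44 and 0.0047, and Xbp1, a transcription factor of this response, was at 0.65. The abundant chaperones Hsp90b1 (359 FPKM with TEPP-46 and 368 FPKM with vehicle), Calr (582 FPKM with TEPP-46 and 598 FPKM with vehicle) and Pdia3 (217 FPKM with TEPP-46 and 239 FPKM with vehicle) differed little. With shikonin, Pdia3 stood at 439 FPKM.

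Mitochondrial quality control showed a similar split. Lonp1, the protease of the mitochondrial matrix, was at 182 FPKM with TEPP-46 and 105 FPKM with shikonin, against 71.8 FPKM with vehicle, a difference of 1.33 ± 0.018. Hspa9 and Dnaja3, chaperones of the matrix, were higher by 0.52 and 0.64. The chaperonin pair Hspd1 (543 FPKM with TEPP-46 and 578 FPKM with vehicle) and Hspe1 (413 FPKM with TEPP-46 and 447 FPKM with vehicle) was not higher.

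Heat shock genes and the proteasome lay mostly below 0. Of 22 heat shock genes tested 5 lay above 0, and 0 were at least 2-fold apart. Hspa8, the constitutive chaperone of the cytosol, was at 1213 FPKM with TEPP-46 and 4645 FPKM with shikonin, against 2133 FPKM with vehicle, a difference of -0.81 ± 0.0057. The inducible Hspa1b was at 8.84 FPKM with TEPP-46 and 12.8 FPKM with vehicle, which is uncertain because Hspa1a is a near-identical copy. Of 31 proteasome subunits 4 lay above 0, with a median of -0.14, and the lowest was Psmd1 at -0.53. The median difference of these lists between shikonin and the same vehicle library was 1.02 for heat shock and 0.85 for the proteasome.

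Oxidative stress genes around the factor NRF2, its targets and its regulators, were moderately higher. Of 36 tested, 27 lay above 0 and 4 were at least 2-fold higher, against 50.0% and 1.31% of all genes tested. The median was 0.34. The 29 targets among them had 21 above 0, all 4 of the genes at least 2-fold higher, and a median of 0.32. Of the 4, Slc7a11 and Sqstm1 are also on the integrated stress response list. Hmox1, which degrades haem, was at 285 FPKM with TEPP-46 and 1361 FPKM with shikonin, against 56.9 FPKM with vehicle, a difference of 2.30 ± 0.030. Its hairpin cultures held 218 FPKM with shPKM2 and 74.4 FPKM with shControl, so the TEPP-46 value lay above both control cultures and below shikonin. Sqstm1 (p62), an autophagy receptor, was at 1099 FPKM with TEPP-46 and 3339 FPKM with shikonin, against 333 FPKM with vehicle. For Sqstm1 the hairpin cultures held 817 FPKM with shPKM2 and 589 FPKM with shControl. Srxn1, which repairs peroxiredoxins, was at 195 FPKM with TEPP-46 and 532 FPKM with shikonin, against 94.6 FPKM with vehicle. Other classic NRF2 targets were higher by less than 2-fold, with Nqo1 at 0.49, Gclc at 0.60, Gclm at 0.41 and Txnrd1 at 0.31. Nfe2l2, which encodes NRF2, was at 97.4 FPKM with TEPP-46 and 60.2 FPKM with vehicle. Gsta1 and Gsta2 were higher by 0.78 and 0.67, and these are near-identical copies whose reads may be split.

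Cell cycle genes lay below 0 almost throughout, by small amounts. Of 36 genes of DNA replication and its onset 34 lay below 0, with a median of -0.36, and of 33 genes of mitosis all 33 lay below 0, with a median of -0.24, while 0 of either list were at least 2-fold lower. The lowest were Ccne1, a cyclin that starts replication (15.5 FPKM with TEPP-46 and 29.9 FPKM with vehicle, -0.90), Tk1, thymidine kinase (46.7 FPKM with TEPP-46 and 85.7 FPKM with vehicle, -0.86), and E2f8 (11.6 FPKM with TEPP-46 and 21.8 FPKM with vehicle, -0.85). Mitotic genes were closer to 0, with Cdc20 and Cenpa the lowest at -0.48 each and Ccnb1 at -0.11. The medians between shikonin and the same vehicle library were -0.93 for replication and -1.39 for mitosis. The D-type cyclins were split: Ccnd2 was at 31.5 FPKM with TEPP-46 and 7.21 FPKM with shikonin, against 12.4 FPKM with vehicle, and Ccnd1 was at 100.1 FPKM with TEPP-46 and 134 FPKM with vehicle. Myc, a growth factor-driven regulator, was at 78.3 FPKM with TEPP-46 and 49.1 FPKM with vehicle.

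Genes around p53, its targets and its regulators, were higher in a few members. Of 22 tested 15 lay above 0 and 3 were at least 2-fold higher, against 50.0% and 1.31% of all genes tested. The median was 0.23. The 19 targets among them had 12 above 0, all 3 of the genes at least 2-fold higher, and a median of 0.35. Of the 3, Sesn2 is also on the integrated stress response list. Gadd45a, a stress gene that arrests the cycle and that ATF4 also controls, was at 141 FPKM with TEPP-46 and 165 FPKM with shikonin, against 23.4 FPKM with vehicle, while the shControl culture was near vehicle at 24.6 FPKM. Its relatives Gadd45b (18.5 FPKM with TEPP-46 and 30.01 FPKM with vehicle) and Gadd45g (51.2 FPKM with TEPP-46 and 73.9 FPKM with vehicle) were lower. Cdkn1a (p21) was at 137 FPKM with TEPP-46 and 106 FPKM with vehicle, and Mdm2 at 53.8 FPKM with TEPP-46 and 51.8 FPKM with vehicle. Genes counted as inhibitors of the growth kinase mTORC1, Eif4ebp1 among them, were split. Of 12 tested 7 lay above 0 and 5 below it, 2 were at least 2-fold higher and the median was 0.04. The 2 higher ones were Ddit4 and Sesn2. Ddit4 (REDD1) was at 54.7 FPKM with TEPP-46 and 13.2 FPKM with vehicle, although shControl held 42.0 FPKM, and Sesn2 was at 33.6 FPKM with TEPP-46 and 10.8 FPKM with vehicle. Eif4ebp1, which holds back translation rather than mTORC1 itself, was higher by 0.94. Deptor, another inhibitor of mTOR, was lower, at -0.65.

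Genes of glycolysis, on which pyruvate kinase acts last, were little different. Pkm, the gene of the TEPP-46 target, was at 1198 FPKM with TEPP-46 and 1501 FPKM with shikonin, against 1321 FPKM with vehicle, a difference of -0.14 ± 0.0071. The hairpin cultures held 1041 FPKM with shPKM2 and 2061 FPKM with shControl. A value per gene does not separate PKM2 from the alternative form PKM1. Pklr, which encodes the pyruvate kinase of liver and erythrocytes, was listed at 0 in every library. The splicing factors that favour the PKM2 form were at -0.29 for Hnrnpa1, -0.30 for Hnrnpa2b1, -0.22 for Srsf3 and 0.06 for Ptbp1. Of 22 glycolytic genes tested 8 lay above 0 and 0 were at least 2-fold apart, with a median of -0.06. The hexokinases went apart: Hk2, the inducible form, was at 37.98 FPKM with TEPP-46 and 21.3 FPKM with vehicle, and Hk1 was at 39.8 FPKM with TEPP-46 and 54.3 FPKM with vehicle. Hk2 stood at 28.6 to 29.2 FPKM in the hairpin cultures. The glucose carrier Slc2a1 was higher by 0.48.

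On the lists of pyruvate fate, the TCA cycle and the respiratory chain, 2 genes were at least 2-fold apart. Pdk4, a kinase that shuts off pyruvate dehydrogenase, was at 3.74 FPKM with TEPP-46 and 13.7 FPKM with shikonin, against 10.7 FPKM with vehicle, a difference of -1.31 ± 0.075. The TEPP-46 library was the lowest of all 5, since the hairpin cultures held 9.84 FPKM with shPKM2 and 7.75 FPKM with shControl. Pck2, the mitochondrial enzyme that makes phosphoenolpyruvate and a known ATF4 target, was at 90.2 FPKM with TEPP-46 and 23.1 FPKM with shikonin, against 38.7 FPKM with vehicle. The hairpin cultures held 33.2 FPKM with shPKM2 and 34.3 FPKM with shControl, so TEPP-46 was again apart. Pcx, which makes oxaloacetate from pyruvate, was higher by 0.50, and Ldha, which makes lactate, was lower, at -0.32. Of the 21 genes of the TCA cycle 18 lay below 0 with a median of -0.12, and the 38 respiratory chain subunits had a median of -0.07. Genes of sterol synthesis had a median of -0.14 with 0 at least 2-fold apart. Acot2, a mitochondrial thioesterase of fatty acids, was at 22.3 FPKM with TEPP-46 and 10.4 FPKM with shikonin, against 2.80 FPKM with vehicle, and it has a near-identical neighbour, Acot1, so its value is uncertain.

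Muscle genes held a few large differences among many small ones. Of 15 genes of myoblast identity that entered 11 lay below 0, with a median of -0.19. Myf5, a factor that commits cells to the muscle lineage, was at 23.7 FPKM with TEPP-46 and 3.69 FPKM with shikonin, against 10.7 FPKM with vehicle, a difference of 1.07 ± 0.064. The hairpin cultures held 23.1 FPKM with shPKM2 and 32.1 FPKM with shControl, so the TEPP-46 level was not above that control. Msc, a repressor of muscle factors, was at 0.795 FPKM with TEPP-46, against 3.24 FPKM with vehicle. Snai2, a repressor that keeps myoblasts from differentiating, was at 55.2 FPKM with TEPP-46 and 12.2 FPKM with shikonin, against 16.4 FPKM with vehicle, and the hairpin cultures held 24.4 FPKM with shPKM2 and 30.5 FPKM with shControl. The inhibitors Id1, Id2 and Id3 were lower, at -0.45, -0.48 and -0.47. Of 25 differentiation genes that entered 15 lay above 0 and 0 were at least 2-fold apart, with a median of 0.08. Myog, which starts differentiation, was at 5.66 FPKM with TEPP-46 and 0.278 FPKM with shikonin, against 5.30 FPKM with vehicle.

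Of the 22 inflammatory genes that entered 14 lay below 0, with a median of -0.15, while 2 were at least 2-fold lower and 2 at least 2-fold higher. Ccl2, a chemokine that draws monocytes, was at 3.57 FPKM with TEPP-46 and 40.8 FPKM with shikonin, against 13.5 FPKM with vehicle, a difference of -1.67 ± 0.13. The hairpin cultures held 203 FPKM with shPKM2 and 359 FPKM with shControl, so this gene varied far more between the control cultures than between TEPP-46 and vehicle. Cxcl12, a chemokine for stem and immune cells, was at 4.38 FPKM with TEPP-46 and 12.6 FPKM with vehicle. The 2 higher ones were Ptgs2, the inducible cyclooxygenase, at 115 FPKM with TEPP-46 and 345 FPKM with shikonin, against 46.4 FPKM with vehicle, and the cytokine gene Il11. The Ptgs2 level with TEPP-46 was below the 149 FPKM of the shControl culture.

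Matrix and cytoskeletal genes lay below 0 in most cases, by small amounts. Of 41 matrix genes tested 27 lay below 0, with a median of -0.08, and 1, Thbs1, was at least 2-fold lower. Of 16 genes around the factor YAP 13 lay below 0, with a median of -0.12, and 1, Ctgf, was at least 2-fold lower. All 10 targets among them lay below 0, with a median of -0.28. Of 21 genes around the factor SRF 17 lay below 0, with a median of -0.20, and 0 were at least 2-fold lower. Ctgf, a matricellular protein and a target of the factor YAP, was at 45.3 FPKM with TEPP-46 and 13.6 FPKM with shikonin, against 118 FPKM with vehicle, a difference of -1.36 ± 0.031. Thbs1, a matricellular glycoprotein, was at 73.5 FPKM with TEPP-46 and 64.3 FPKM with shikonin, against 186 FPKM with vehicle. For both genes the vehicle culture was the highest of all 5, and the shControl culture was lower than TEPP-46, at 25.2 FPKM for Ctgf and 49.8 FPKM for Thbs1. Lower by less than 2-fold were Plau, a secreted protease, at -0.79, and Lox, which crosslinks collagen, at -0.63.

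Growth factor signalling held a few lower genes on lists that lay near 0. Of 14 feedback genes of the MAP kinases 5 lay above 0 and 1 was at least 2-fold lower, with a median of -0.10. The highest of them was the phosphatase gene Dusp8, at 0.86. Of 17 genes of insulin and IGF signalling 8 lay above 0 and 1 was at least 2-fold lower, with a median of -0.0053. Of 19 immediate early genes 11 lay above 0, with a median of 0.09, and each side held 1 gene that was at least 2-fold apart. Irs1, the adaptor of the insulin receptor, was at 4.46 FPKM with TEPP-46 and 5.84 FPKM with shikonin, against 12.9 FPKM with vehicle, a difference of -1.35 ± 0.044. Irs2, its relative, lay on the other side, at 7.67 FPKM with TEPP-46 and 4.72 FPKM with vehicle. Errfi1, a feedback inhibitor of the EGF receptor, was at 48.6 FPKM with TEPP-46 and 72.4 FPKM with shikonin, against 117 FPKM with vehicle. Egr1, an immediate early factor, was at 14.8 FPKM with TEPP-46, against 32.8 FPKM with vehicle, and Spry4, an inhibitor of the same cascade, was at 3.39 FPKM with TEPP-46, against 6.78 FPKM with vehicle. Rgs16, which shortens signals of G proteins, was at 2.93 FPKM with TEPP-46 and 7.16 FPKM with shikonin, against 10.2 FPKM with vehicle. The TEPP-46 library was the lowest of all 5 for Irs1, Errfi1, Egr1, Spry4 and Rgs16. For Egr1 the shikonin library was close to it, at 15.4 FPKM. Klf4, another early factor, went the other way, at 109 FPKM with TEPP-46 and 24.9 FPKM with shikonin, against 30.9 FPKM with vehicle.

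**Figure D4:**
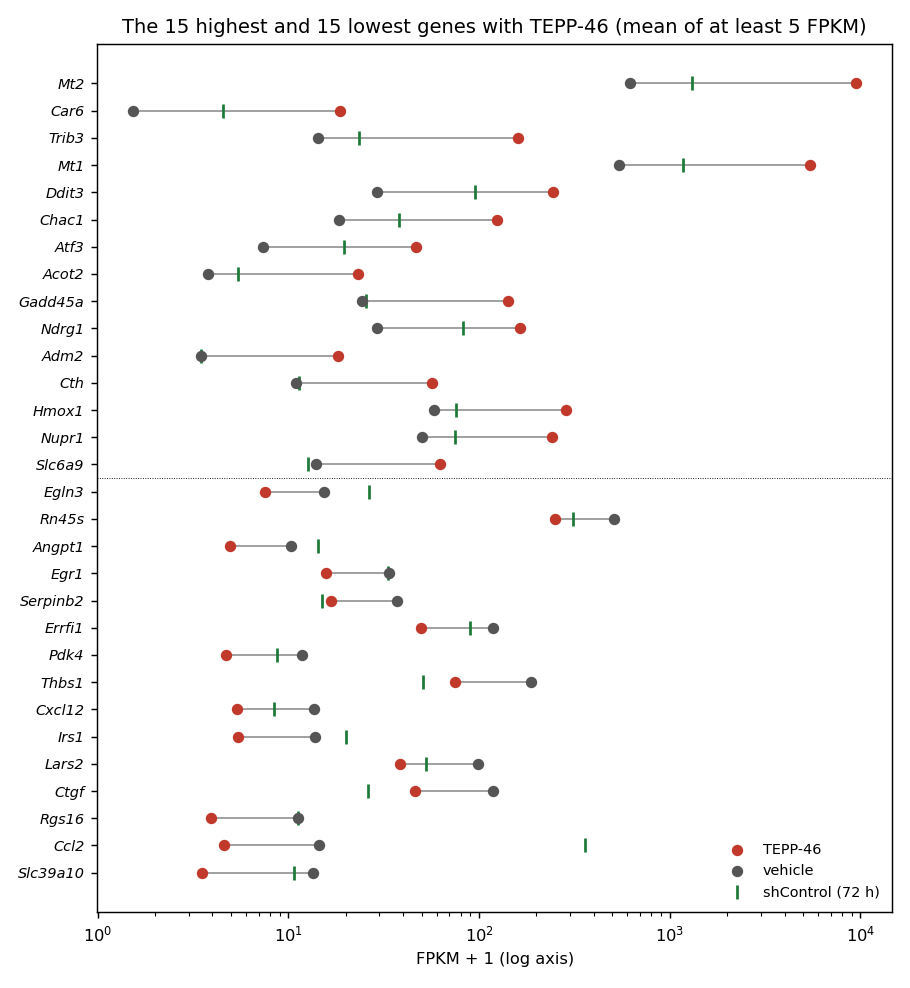
FPKM + 1 (log axis) of the 15 longer genes with the highest and the 15 with the lowest difference among those with a mean of at least 5 FPKM, for TEPP-46, vehicle and the shControl culture. Above the dotted line the TEPP-46 points lie to the right of shControl as well as of vehicle, and below it Ctgf, Thbs1 and Serpinb2 have shControl to the left of TEPP-46.

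Against the whole series, the TEPP-46 library held the highest of all 5 values for 109 of the 136 higher longer genes and the lowest of all 5 for 20 of the 25 lower ones. It lay above both control cultures for 129 of the 136 and below both for 22 of the 25. These genes were chosen for their difference from the vehicle library. In the counts against both control cultures, only the place of the shControl value is thus new. In the counts over all 5 libraries, the places of shikonin, shPKM2 and shControl are new. Of the 136 higher genes 55 were on any of the 62 lists, and of the 25 lower genes 15 were.

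**Figure D5:**
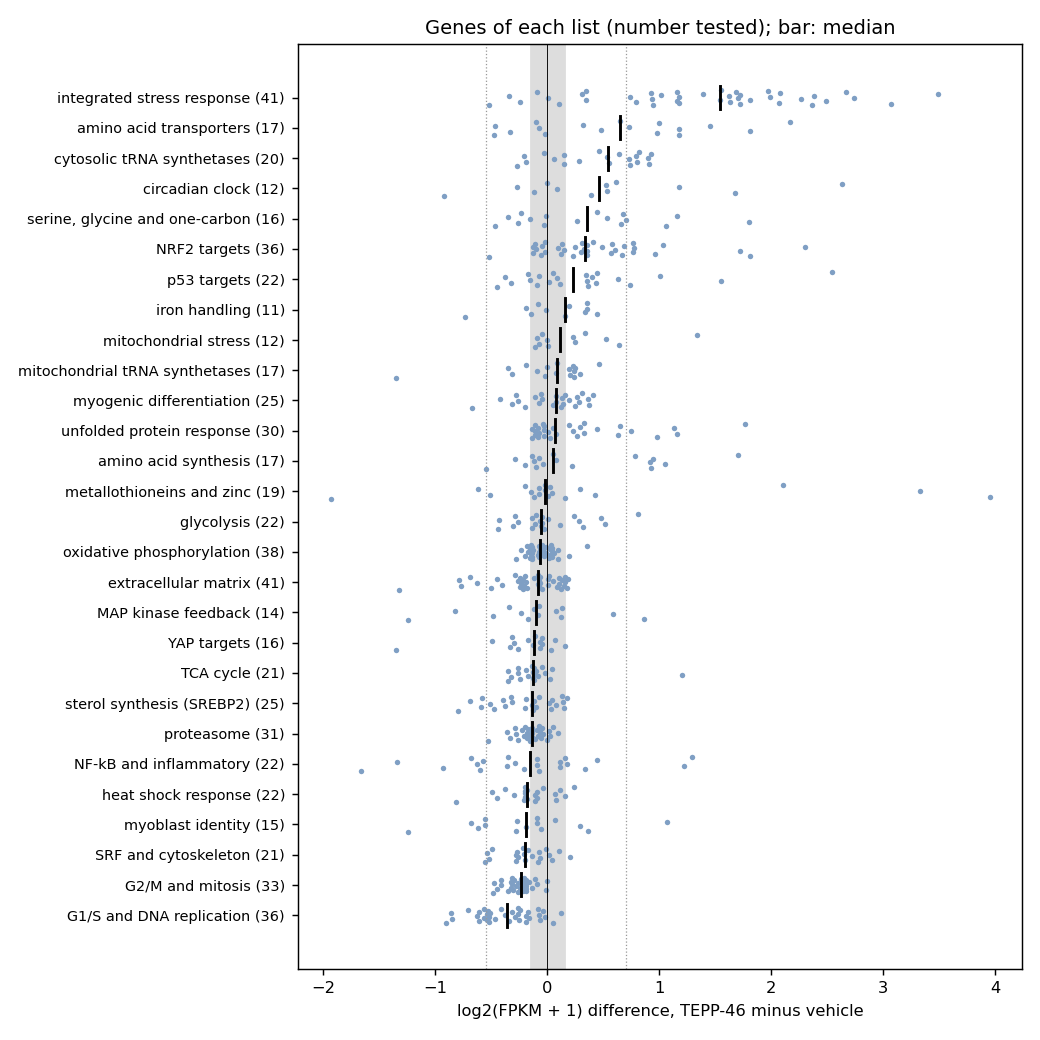
Difference in log2(FPKM + 1), TEPP-46 minus vehicle, for the tested genes of 28 lists, 1 point a gene, with a bar at the median. The grey band spans the quartiles of all genes tested, from -0.14 to 0.16, and the dotted lines the middle 95%. The integrated stress response list lies apart at a median of 1.54, and the cell cycle lists lie at -0.36 and -0.24 with little spread.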

How the data were processed

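RNA of 5 cultures was measured, 1 library per condition. The authors deposited 1 table of FPKM values per gene, with 1 column per library. Columns were assigned to conditions by name. The shControl column carries an added number in its name, which no label explains. Per the submitters' processing notes, Trim Galore 0.6.0, cutadapt, FastQC and DESeq2 1.26.0 were used with the genome build GRCm38. Per the labels' protocols, libraries were made with NEBNext kits after poly(A) selection and sequenced on a NextSeq500. The sources used here do not name the aligner, the program behind the FPKM values, its measure of library size, the annotation or the strand setting.

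FPKM values are not read counts, so no count model was fitted, and nothing was tested, for want of replicates. Values were taken as log2 of the deposited FPKM plus a pseudocount of 1, and genes were kept where both libraries averaged at least 1 FPKM. A gene was counted from a 2-fold difference on that scale. Genes under 300 nt or of small RNA classes were counted apart. Depth was estimated from the lowest values: in 73.8% of 3360 low genes they were whole multiples of 1 step (tolerance 0.02), 1 read in the TEPP-46 library was worth 1.28 times that in the vehicle library, and 614 genes with a single GENCODE M21 transcript gave the vehicle depth (quartiles 27.2 and 32.3 in units of 1000000 reads). Of the table's symbols 21725 matched GENCODE directly and 1270 through older symbols. The counting SE comes from these estimated reads, covers counting error only, and leaves out variation between cultures. The scripts (Python 3.11.15, numpy 2.4.6, pandas 2.3.3) were checked on simulated data.

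The members and the 62 gene lists were chosen with earlier results of these data known, and lists share members. Named by rule were the 15 highest and 15 lowest longer genes with a regular symbol and a mean of at least 5 FPKM, list members at least 2-fold apart, otherwise the 2 highest and 2 lowest of each list, regulators, and Pkm with its splicing factors. Further members of a list were picked as examples after their values were seen. Promoter windows and their coordinates are from RefSeq (GRCm38.p6), and gene starts from GENCODE M21. Alternatives were other pseudocounts, rescaling to TPM, centring on the median, other minimum levels and folds, leaving out short RNA genes, and shControl as the control. Some items are not reported here.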

Additional observations from a re-analysis of the deposited data

How the results depend on the processing

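No paired analysis was possible because each condition had 1 library, and for the same reason no library could be left out. The count of genes at least 2-fold higher, 143, was 77 with a pseudocount of 5, 393 at 1.5-fold, 51 at 3-fold and 232 with shControl as the control. The count lower, 39, was 72 with a pseudocount of 0.1, 20 with a pseudocount of 5, 61 after rescaling to TPM, 25 without short RNA genes, 215 at 1.5-fold, 14 at 3-fold and 496 with shControl as the control. Of the 136 higher longer genes, 71 remained at least 2-fold higher at the pseudocount of 5 and 92 against shControl, and of the 25 lower ones 7 and 13 remained. Against shControl, 129 and 22 kept their direction. With shControl as the control the list medians became -0.29 for the unfolded protein response, -0.16 for mitosis, -0.67 for glycolysis, -0.29 for the TCA cycle, -0.33 for oxidative phosphorylation, -1.01 for sterol synthesis, 0.015 for extracellular matrix and -1.07 for inflammatory genes, and turned positive for SRF genes (0.28) and YAP genes (0.48). Ptgs2 (-0.37), Myf5 (-0.43), Serpinb2 (0.17), Thbs1 (0.55), Ctgf (0.82) and Rmrp (0.089) turned round in that comparison as well. The heat shock median was -0.21 after rescaling to TPM. The causes were not tested. Low genes are limited by depth, and differences in them rest on few reads.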

Other observations

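Circadian clock genes were not covered above. Of 17 listed genes 12 entered, 8 lay above 0, 3 were at least 2-fold higher (against 1.31% of all genes) and the median was 0.46. The repressor gene Gm129 (Ciart) was at 10.8 FPKM with TEPP-46 and 4.50 FPKM with shikonin, against 0.910 FPKM with vehicle, and the hairpin cultures held 4.27 FPKM with shPKM2 and 5.14 FPKM with shControl. Nfil3, a repressor of clock output genes, was at 57.3 FPKM with TEPP-46 and 17.2 FPKM with shikonin, against 17.3 FPKM with vehicle, so TEPP-46 alone stood apart. Cry2, a core repressor, was at 6.45 FPKM with TEPP-46, against 2.30 FPKM with vehicle. Nr1d1 (REV-ERB alpha), a repressor of Arntl, was lower, at 9.57 FPKM with TEPP-46 and 19.0 FPKM with vehicle, while Arntl was at 19.0 FPKM with TEPP-46 and 12.9 FPKM with vehicle. The time of day at which the cultures were taken is not given in the sources used here.

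Notch genes also lay on both sides. Notch3 was at 9.13 FPKM with TEPP-46 and 4.55 FPKM with vehicle, and Rbpj, the DNA-binding partner of Notch, was at 40.1 FPKM with TEPP-46 and 24.98 FPKM with vehicle. Notch1 was at 4.59 FPKM with TEPP-46 and 6.54 FPKM with vehicle. Among genes on no list, Gch1, the entry enzyme of tetrahydrobiopterin synthesis, was at 21.4 FPKM with TEPP-46 and 16.5 FPKM with shikonin, against 4.79 FPKM with vehicle. Cyb5r1, a reductase of cytochrome b5, was at 215 FPKM with TEPP-46 and 101 FPKM with shikonin, against 59.2 FPKM with vehicle. Cpox, an enzyme of haem synthesis, was at 48.5 FPKM with TEPP-46, against 20.5 FPKM with vehicle. Its promoter window held 4 matches to the metal response element core. That core is common: 11.65% of the windows of tested genes held at least 2 matches. The higher genes as a group did not hold it more often, and a link of Cpox to metal was not tested. Arntl, Gch1, Cyb5r1 and Cpox were named after their values were seen.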
